A study of Mus musculus with 31 samples.

Results

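The 10 genes described here, Flt3, Il7r, Rag1, Rag2, Dntt, Notch1, Ikzf1, Ccr9, Ebf1 and Satb1, are known for lymphoid priming, the low expression of lymphocyte genes in stem and progenitor cells that have not yet chosen a lineage. All 27 probe sets annotated to them were taken, of 45037 on the Affymetrix mouse array once control probe sets were left out. They were measured in fetal liver hematopoietic stem cells (FL HSCs), sorted as Sca-1+, Lin-, AA4.1+, c-Kit++ cells from livers at 14.5 days post coitus. Cells of 15 embryos were combined in each sample, and 12 ng of its RNA was amplified.

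Each of 3 experiments set a mutant against its own WT cells: Crebbp+/- (2 samples) against WT littermates (2 samples), and Ep300+/- (2 samples) against WT littermates (2 samples), all C57BL/6 and each read on 2 arrays, and Cdkn1a-/- (4 samples) against WT (3 samples), all labelled B6/129Sv and each read on 1 array. Crebbp and Ep300 encode CBP and p300, related histone acetyltransferases that act as transcriptional coactivators, and Cdkn1a encodes the cell cycle inhibitor p21. The Cdkn1a-/- mice (the tm1Tyj allele) and their WT controls were bought as separate stocks, so genotype and stock cannot be told apart. Each mutation was carried by the whole animal, and no cell-type-specific Cre was used. In mouse embryonic fibroblasts (MEFs), Crebbp+/- cells (4 samples, 1 embryo from each of 4 litters) were set against WT cells of the same litters (4 samples), all C57BL/6 and from embryos at 14.5 days post coitus.

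As background, Flt3 and Il7r are cytokine receptors of early lymphoid progenitors, and Ccr9 is the receptor for the thymic chemokine Ccl25. Ikzf1 (Ikaros), Satb1 and Ebf1 are DNA-binding proteins that open the lymphoid programme, and Ebf1 commits cells to the B lineage. Notch1 drives the T lineage choice. Rag1 and Rag2 form the recombinase that cuts antigen receptor genes, and Dntt (terminal transferase) adds bases at the cut ends.

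The promoters of Ccr9, Ebf1, Rag1, Rag2 and Il7r are shown because the differences between genotypes or between samples described below turn on Ccr9, Ebf1, Rag1 and Il7r, and because Rag2 neighbours Rag1 and did not follow it. Each is the 250 bases upstream of a RefSeq transcription start in GRCm38.p6, written 5′ to 3′ on the gene's strand, with the E-box CANNTG, the letters bound by E proteins, in capitals. They lie at chr9:123766961-123767210 (Ccr9, plus strand), chr11:44617850-44618099 and chr11:44619978-44620227 (starts 1 and 2 of Ebf1, plus strand), chr2:101649533-101649782 (Rag1, minus strand), chr2:101624462-101624711 (Rag2, plus strand) and chr15:9529877-9530126 (Il7r, minus strand).
Ccr9: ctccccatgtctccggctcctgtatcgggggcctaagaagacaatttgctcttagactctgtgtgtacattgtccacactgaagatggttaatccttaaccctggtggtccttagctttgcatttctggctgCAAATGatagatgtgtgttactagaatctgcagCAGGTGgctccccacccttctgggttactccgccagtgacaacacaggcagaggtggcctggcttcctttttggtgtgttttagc
Ebf1 start 1: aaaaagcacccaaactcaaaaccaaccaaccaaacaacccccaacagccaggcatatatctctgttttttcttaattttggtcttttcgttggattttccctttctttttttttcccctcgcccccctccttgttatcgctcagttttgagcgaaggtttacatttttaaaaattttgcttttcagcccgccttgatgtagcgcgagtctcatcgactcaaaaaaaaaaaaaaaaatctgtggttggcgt
Ebf1 start 2: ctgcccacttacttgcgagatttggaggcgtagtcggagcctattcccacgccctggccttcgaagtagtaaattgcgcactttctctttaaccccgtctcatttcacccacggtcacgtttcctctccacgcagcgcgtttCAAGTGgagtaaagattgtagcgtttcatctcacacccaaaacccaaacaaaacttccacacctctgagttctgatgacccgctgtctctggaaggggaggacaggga
Rag1: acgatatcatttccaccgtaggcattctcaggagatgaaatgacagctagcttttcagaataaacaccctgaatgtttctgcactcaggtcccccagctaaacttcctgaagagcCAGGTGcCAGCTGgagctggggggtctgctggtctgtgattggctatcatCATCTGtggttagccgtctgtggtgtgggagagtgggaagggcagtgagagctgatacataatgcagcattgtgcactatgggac
Rag2: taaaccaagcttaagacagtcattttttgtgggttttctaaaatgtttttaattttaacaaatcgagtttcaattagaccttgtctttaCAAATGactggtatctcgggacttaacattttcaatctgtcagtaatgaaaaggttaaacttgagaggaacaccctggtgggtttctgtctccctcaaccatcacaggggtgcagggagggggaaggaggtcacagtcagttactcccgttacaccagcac
Il7r: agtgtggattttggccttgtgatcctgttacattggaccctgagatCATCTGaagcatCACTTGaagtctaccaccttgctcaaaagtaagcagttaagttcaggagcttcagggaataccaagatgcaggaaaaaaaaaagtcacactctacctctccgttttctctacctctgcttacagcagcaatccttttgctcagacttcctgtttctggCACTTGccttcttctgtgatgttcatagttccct

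An E-box, which reads as the same pattern on both strands, occurred in 66.2% of 32851 windows of this length. Il7r had 3 E-boxes, Rag1 3, Ccr9 2, Rag2 1 and the Ebf1 windows 0 and 1. The Runx motif TGTGGT, searched on both strands, was found in 14.0% of windows and in the Rag1 window 2 times and that of Ebf1 start 1 1 time. The Ikaros motif TGGGAA, likewise searched on both strands, was found in 21.6% of windows and in the windows of Rag1 and of Ebf1 start 2, 1 time each. A match describes the letters only, and where in its gene each probe set lies was not used here.

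A level is the deposited log2 intensity, and levels were compared only within an experiment because each was normalized apart. A probe set was tested where at least 1 sample reached log2(100), a level of 6.64, called the minimum here. Of the 27 probe sets, 11 were tested in the joint fit of the Crebbp and Ep300 experiments (7 of the 10 genes) and 16 in the Cdkn1a experiment (9 of the 10 genes). The other 11 stayed below the minimum in all 15 FL HSC samples: the 3 of Dntt, 4 of the 5 of Ebf1, 2 of the 5 of Ccr9, 1 of the 2 of Ikzf1 and 1 of the 5 of Satb1. The brightest Dntt probe set, 1450545_a_at, lay between 2.23 and 2.28 in every FL HSC sample, so that it showed no signal to compare.

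**Figure D1:**
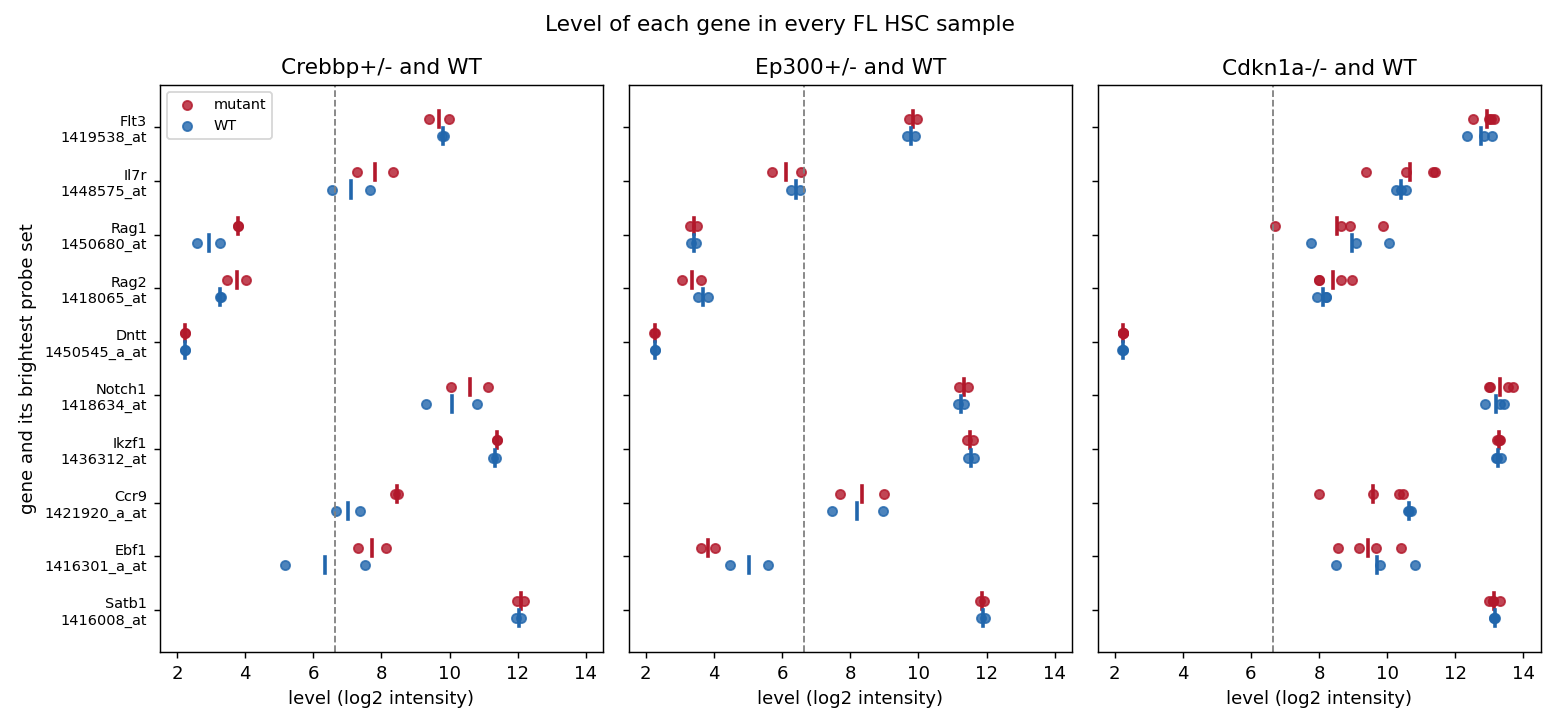
Levels (log2 intensity, x axis) of the brightest probe set of each gene (y axis) in the 3 FL HSC experiments, with a point for each sample, a bar for the group mean, mutant above WT in each row and a dashed line at the minimum of 6.64. Ikzf1 and Satb1 sit in narrow columns, Ccr9 of the Crebbp experiment is higher in both mutant samples than in both WT samples, and Rag1, Ccr9 and Il7r of the Cdkn1a experiment each have a mutant sample far to the left.

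Across the series, 11199 to 12363 probe sets reached the minimum on the FL HSC arrays of the Crebbp and Ep300 experiments and 18947 to 19522 on those of the Cdkn1a experiment. Kit and Cd93 (AA4.1) were above the minimum in every FL HSC sample, as the sort implies, and Sca-1 (Ly6a) was not matched in the annotation. Cd34, which was not used in the sort, was also above the minimum in every FL HSC sample. The stem cell gene Meis1 lay on both sides of the minimum in the Crebbp experiment (6.08 to 7.48). The T lineage markers Cd3e, Cd3g, Cd3d and Ptcra and the B lineage marker Pax5 were between 1.96 and 2.49 in every FL HSC sample, and at most 3 of the 11 T lineage markers matched in the annotation reached the minimum in a group. Other markers of these lineages were not low. The B lineage marker Cd79b was above the minimum in every FL HSC sample (lowest level 8.01). In the Cdkn1a experiment the T lineage markers Lat (9.20 to 10.18) and Cd4 (8.38 to 8.79) were above it in every sample. Of the probe sets for the inactivated genes, the brightest of Crebbp overlapped between genotypes (11.66 to 11.95 in Crebbp+/- and 11.41 to 12.07 in WT samples), as did that of Cdkn1a (5.30 to 8.07 in Cdkn1a-/- and 7.66 to 8.86 in WT samples). All mutant samples lay below all WT samples at the only one of Ep300 (9.46 to 9.47 in Ep300+/- and 9.53 to 9.60 in WT samples) and at the dimmest ones of Crebbp (6.31 to 6.72 in Crebbp+/- and 6.88 to 7.004 in WT samples, and 3.92 to 4.15 in Crebbp+/- and 4.38 to 4.39 in WT samples) and of Cdkn1a (2.18 to 2.25 in Cdkn1a-/- and 2.44 to 3.86 in WT samples), none of them called. The parts of the genes deleted were not set against the probes, and samples were grouped by their labels. WT sample 3 of the Cdkn1a experiment stood apart, with a level of 12.97 for the red cell gene Slc4a1 (2.36 to 4.53 in Cdkn1a-/- samples, 2.68 and 2.69 in the other WT samples) and a summed fetal hepatocyte intensity of 83575 (771 to 3314 in Cdkn1a-/- samples and 395 to 427 in the other WT samples), so changes of the members in the Cdkn1a experiment are also given without it.

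In Crebbp+/- FL HSCs, the largest differences of the group were at Ccr9, 2.70-fold and 2.29-fold above WT at its tested probe sets, and at Ebf1, 2.61-fold above WT, and none of them was called. To be called, a probe set had to have an adjusted p from limma below 0.05 together with a fold over 1.5, which 0.383% of the 13332 probe sets tested did (51). At an unadjusted p under 0.05 with that fold, 3 of the 11 tested probe sets were higher (the Ccr9 ones and Ebf1), against 4.68% of all probe sets, and 0 were lower, against 5.32%. The dimmer Ccr9 probe set entered the test only through a Crebbp+/- sample and so had to be high there, and without it the count was 2 of 10. Mean levels in WT lay below the minimum at Ebf1 and at the dimmer Ccr9 probe set, so the size of those folds depends on the background.

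Ccr9 had levels of 8.40 and 8.49 in the Crebbp+/- samples at 1421920_a_at, against 7.38 and 6.66 in the WT samples. Both mutant samples lay above both WT samples, and the arrays of a sample differed by 0.098 to 0.631. The log2 change was 1.43 (SE 0.21, 95% interval 0.88 to 1.99, adjusted p = 0.0605). Its dimmer probe set 1427419_x_at had levels of 6.48 and 7.31 in Crebbp+/- samples, against 5.21 and 6.19 in WT samples. Again no WT sample reached the lower mutant sample, and the probe set passed the minimum only through Crebbp+/- sample 2 in this experiment. Its log2 change was 1.19 (SE 0.14, 95% interval 0.83 to 1.56, adjusted p = 0.0508). A probe set with the ending x_at may also read related sequences. This probe set is on the study's own list of probe sets that changed in these samples, so its direction is not independent evidence.

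The Ccr9 calls turned on the settings of the test. The changes were called for 1421920_a_at with eBayes fitted with a trend and robustly (adjusted p = 0.00587) and with the minimum applied to the mean level (adjusted p = 0.0474), and for 1427419_x_at with the first of these (adjusted p = 0.0324), with arrays centred on their medians (adjusted p = 0.0445) and with a further quantile normalization (adjusted p = 0.0468). Each of these settings also called more probe sets of the whole array than the main fit did, with the counts given at the end. Over all alternatives the log2 change at 1421920_a_at ranged from 1.03 to 1.84 and its adjusted p from 0.00587 to 0.624.

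Ebf1, whose only tested probe set was 1416301_a_at, had levels of 7.31 and 8.14 in Crebbp+/- samples, against 5.17 and 7.51 in WT samples. The groups overlapped, because WT sample 2 lay between the mutant samples, while WT sample 1 alone was below the minimum. The log2 change was 1.38 (SE 0.39, 95% interval 0.37 to 2.40, adjusted p = 0.133), made up of 2.14 in pair 1 and 0.63 in pair 2. In the same samples the fetal hepatocyte markers (4 of the 5 listed, all reaching the minimum in WT and 2 in Crebbp+/-) summed to intensities of 267 and 402 in Crebbp+/- samples and 32.9 and 797 in WT samples, lowest in the WT sample with the least Ebf1. B lineage markers summed to 398 and 337 in Crebbp+/- samples and 338 and 354 in WT samples, mostly from Cd79b (levels of 8.28 and 8.01 in Crebbp+/-, 8.19 and 8.20 in WT samples). Below the minimum, 3 of the 8 matched in the annotation were higher in 2 of 2 pairs. The share over all probe sets tested, 39.3%, is not a like measure, because these 3 were not tested. They were Pou2af1 (4.82 and 4.08 in Crebbp+/-, 2.44 and 3.11 in WT samples), Vpreb1 (4.49 and 4.08 in Crebbp+/-, 3.504 and 3.81 in WT samples) and Igll1 (4.17 and 4.73 in Crebbp+/-, 3.36 and 4.08 in WT samples). Pax5, Cd79a, Blnk and Blk lay between 2.23 and 2.57 in these samples. Levels this low are set largely by the background model. Megakaryocyte markers (all 4 matched, 0 reaching the minimum in Crebbp+/- and 1 in WT) summed to 66.2 and 86.1 in Crebbp+/- samples and 151 and 160 in WT samples. The part of these cells in the differences of Ebf1 or of any gene here was not tested.

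Il7r had levels of 7.29 and 8.33 in Crebbp+/- samples at 1448575_at, against 6.55 and 7.67 in WT samples. It was higher in 2 of 2 pairs, by 0.73 and 0.66, yet the groups overlapped, since the second sample of each genotype was well above the first. The log2 change was 0.70 (SE 0.27, 95% interval -0.01 to 1.40, adjusted p = 0.212), and it was 0.14 with technical replicate 1 alone and 1.25 with technical replicate 2 alone. Notch1 showed a like offset between pairs: 1418634_at had levels of 11.13 and 10.06 in Crebbp+/- samples, against 10.82 and 9.31 in WT samples. Its log2 change was 0.53 (SE 0.14, 95% interval 0.17 to 0.89, adjusted p = 0.121), a fold of 1.44. The second Notch1 probe set, 1418633_at, was below the minimum in all 4 samples (5.47 and 5.63 in Crebbp+/-, 5.54 and 5.92 in WT) and was lower in 2 of 2 pairs, so the probe sets differed in sign.

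Satb1, a chromatin organizer of lymphoid progenitors, was nearly level at its brightest probe set 1416008_at, with 11.98 and 12.18 in Crebbp+/- samples against 11.96 and 12.10 in WT samples (log2 change 0.06, 95% interval -0.20 to 0.32). At 1436182_at it had levels of 7.99 and 8.02 in Crebbp+/- samples, against 7.62 and 7.59 in WT samples. There the mutant samples stood above the WT samples, with a log2 change of 0.40 (SE 0.10, 95% interval 0.13 to 0.67, adjusted p = 0.119). The arrays of a sample differed there by 0.30 to 0.67, and the change was 0.84 with technical replicate 1 alone and -0.0445 with technical replicate 2 alone. The third tested probe set, 1416007_at, differed by 0.12 (95% interval -0.16 to 0.39).

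Ikzf1 varied little, with levels of 11.38 in both Crebbp+/- samples, against 11.29 and 11.36 in WT samples at 1436312_at. The difference of 0.06 had a 95% interval of -0.20 to 0.32. Flt3 had levels of 9.40 and 9.99 in Crebbp+/- samples, against 9.82 and 9.79 in WT samples. It was lower in pair 1 by 0.43 and higher in pair 2 by 0.20, so its log2 change of -0.11 (95% interval -0.56 to 0.34, adjusted p = 0.747) had no stable sign.

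Rag1 and Rag2 stayed below the minimum in the Crebbp experiment and were not tested. Rag1 had levels of 3.81 and 3.80 in Crebbp+/- samples, against 3.27 and 2.59 in WT samples. Rag2 had levels of 3.48 and 4.03 in Crebbp+/- samples, against 3.25 and 3.28 in WT samples. Values this low are set largely by the background model, so no fold is given.

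Counting the 11 tested probe sets in the Crebbp experiment, 9 were higher in 2 of 2 pairs, against 39.3% of all probe sets tested, and 4 had both mutant samples above both WT samples, against 16.1%. Their median log2 change was 0.40, against 0.05 over all probe sets tested. Without the dimmer Ccr9 probe set the counts were 8 and 3 of 10 and the median 0.26. The 11 are not independent, since several belong to the same gene, and 7 genes are behind them.

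**Figure D2:**
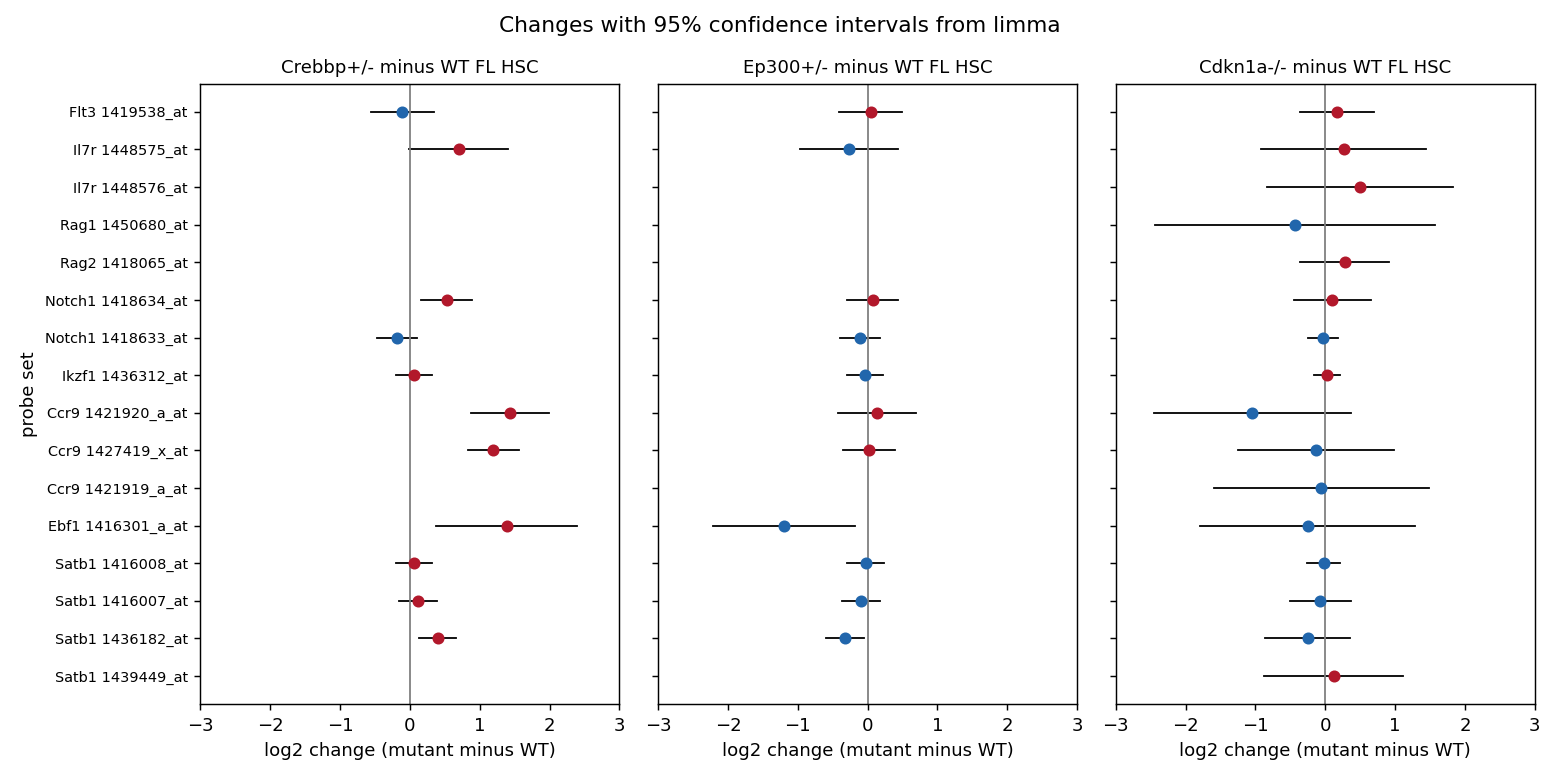
Log2 change (mutant minus WT, x axis) of each member probe set tested (y axis) in the 3 FL HSC comparisons, with lines for the 95% interval from limma, red points above 0 and blue points below 0. Intervals for both Ccr9 probe sets, Ebf1, Notch1 1418634_at and Satb1 1436182_at lie above 0 in Crebbp+/-, those for Ebf1 and Satb1 1436182_at lie below 0 in Ep300+/-, and all 16 cross 0 in Cdkn1a-/-.

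In Ep300+/- FL HSCs none of the 11 tested probe sets was called, and limma called 0% of the 13332 probe sets tested, with 570 at an unadjusted p under 0.05. At an unadjusted p under 0.05 and a fold over 1.5 only Ebf1 passed, against 0.780% of all probe sets tested (104). Of the 11, 6 were lower in 2 of 2 pairs, against 30.4% of all, and 3 had both mutant samples below both WT samples, against 18.6%. Both counts include Notch1 at 1418633_at, which entered the joint fit only through WT sample 2 of the Ep300 experiment (a level of 6.72). The filter thus favoured a lower mutant level there, and its place in the counts is no evidence of one. The median change of the 11 was -0.04, against -0.02 over all probe sets tested.

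Ebf1 had levels of 3.63 and 4.04 in Ep300+/- samples, against 4.46 and 5.59 in WT samples. The mutant samples were both lower, but all 4 lay below the minimum, and the probe set entered the test only through the Crebbp experiment. Its log2 change was -1.19 (SE 0.39, 95% interval -2.21 to -0.18, adjusted p = 1.00), and no fold is drawn from it. Satb1 at 1436182_at was likewise lower, with 7.11 and 7.03 in Ep300+/- samples against 7.37 and 7.40 in WT samples, a log2 change of -0.32 (SE 0.10, adjusted p = 1.00).

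Ccr9 varied between pairs rather than between genotypes here. At 1421920_a_at it had levels of 7.70 and 9.00 in Ep300+/- samples, against 7.46 and 8.97 in WT samples. The second sample of each genotype was the higher, and the genotypes differed by 0.13 (95% interval -0.42 to 0.69). At 1427419_x_at all 4 samples were below the minimum.

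The brightest probe sets of Flt3, Ikzf1, Notch1 and Satb1 differed little in Ep300+/- cells. Flt3 had levels of 9.72 and 9.96 in Ep300+/- samples against 9.67 and 9.91 in WT samples, and Ikzf1 had 11.42 and 11.59 against 11.46 and 11.63. Notch1 at 1418634_at had 11.21 and 11.46 in Ep300+/- samples against 11.17 and 11.35 in WT samples, and Satb1 at 1416008_at had 11.81 and 11.93 against 11.85 and 11.94. Their 95% intervals reached from -0.41 to 0.49 for Flt3, from -0.30 to 0.22 for Ikzf1, from -0.29 to 0.44 for Notch1 and from -0.29 to 0.23 for Satb1. Il7r lay below the minimum throughout, with 5.70 and 6.56 in Ep300+/- samples against 6.53 and 6.27 in WT samples. It was lower by 0.83 in pair 1 and higher by 0.29 in pair 2 (95% interval of the change -0.97 to 0.44), so its sign was not stable. Rag1 and Rag2 were between 3.07 and 3.84 in all 4 samples.

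Whether the heterozygous effects differed from each other was tested as the Crebbp effect minus the Ep300 effect in the joint fit. No probe set was called, of the members or of the array (0% of 13332, with 2025 at an unadjusted p under 0.05), while 4 of the 11 members passed an unadjusted p under 0.05 with the fold, against 9.98% of all probe sets. The difference was 1.30 for Ccr9 at 1421920_a_at (95% interval 0.52 to 2.08, adjusted p = 0.199) and 0.72 for Satb1 at 1436182_at (95% interval 0.34 to 1.10, adjusted p = 0.184), whose Crebbp change turned on the array read. The others of the 4 were Ebf1 (adjusted p = 0.188) and Ccr9 at 1427419_x_at (adjusted p = 0.169). All Ep300+/- and WT samples of the Ep300 experiment lay below the minimum at both, so no size is drawn from them. Ccr9 at 1427419_x_at also entered the joint fit only through a Crebbp+/- sample. The filter thus favoured a positive difference there, and its place in the count is no evidence of one.

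In the Cdkn1a experiment the genes of the group were detected more widely, Rag1 and Rag2 included, and none of the 16 tested probe sets was called, where limma called 0.405% of 20962 (85). None passed an unadjusted p under 0.05 with the fold, against 4.05% of all. The median change was -0.03, against 0.05 over all probe sets tested, and it became 0.19 without Cdkn1a-/- sample 4, against 0.05 over all, and -0.03 without WT sample 3, against 0.02 over all. What stood out was the spread between samples of the same genotype. Strain, stock and normalization all differ from the other experiments, so the wider detection and these cannot be told apart.

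Rag1, at 1450680_at, had levels of 9.86, 8.64, 8.91 and 6.71 in Cdkn1a-/- samples 1 to 4, against 10.04, 7.75 and 9.07 in WT samples 1 to 3. The groups overlapped fully but for Cdkn1a-/- sample 4, the lowest of all, which lay just above the minimum. The log2 change of -0.43 (SE 0.84, 95% interval -2.43 to 1.58, adjusted p = 0.869) turned to 0.18 without that sample and to 0.12 without WT sample 1, and was -1.03 without WT sample 2 and -0.37 without WT sample 3. The SD within groups was 1.26, at the 97.2th percentile of all probe sets tested.

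Rag2, the neighbour of Rag1 and its partner in the recombinase, had levels of 8.96, 8.65, 8.01 and 7.99 in Cdkn1a-/- samples, against 8.21, 8.21 and 7.95 in WT samples. It spanned less than Rag1 did, and Cdkn1a-/- sample 4 was not apart from sample 3. The log2 change was 0.28 (SE 0.27, 95% interval -0.36 to 0.91, adjusted p = 0.756), and 0.19 without WT sample 3.

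Ccr9 had levels of 10.35, 10.46, 9.57 and 8.001 in Cdkn1a-/- samples at 1421920_a_at, against 10.60, 10.70 and 10.64 in WT samples. Here all mutant samples lay below all WT samples, as for 3.08% of probe sets tested, with means of 9.60 ± 1.14 (SD, n = 4) in Cdkn1a-/- and 10.64 ± 0.05 (SD, n = 3) in WT samples. The log2 change was -1.05 (SE 0.59, 95% interval -2.45 to 0.36, adjusted p = 0.717), and it was -0.51 without Cdkn1a-/- sample 4 and -1.05 without WT sample 3. The other tested Ccr9 probe sets did not repeat the separation. At 1427419_x_at the levels were 9.40, 9.56, 9.26 and 7.64 in Cdkn1a-/- samples, against 9.18, 9.05 and 9.06 in WT samples, so that the first 3 mutant samples were above every WT sample and sample 4 below. Its change of -0.13 (95% interval -1.25 to 0.98) became 0.31 without sample 4 and was -0.15 without WT sample 3. The third, 1421919_a_at, reached the minimum only in Cdkn1a-/- sample 1 (6.87) and differed by -0.06, or by 0.42 without Cdkn1a-/- sample 4 and 0.0225 without WT sample 3.

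Il7r had levels of 11.35, 11.40, 10.56 and 9.38 in Cdkn1a-/- samples at 1448575_at, against 10.41, 10.24 and 10.56 in WT samples. The mutant samples spread on both sides of the WT samples. The log2 change was 0.27 (SE 0.49, 95% interval -0.92 to 1.45, adjusted p = 0.861) and became 0.70 without Cdkn1a-/- sample 4 and 0.34 without WT sample 3. The dimmer 1448576_at kept the order of the Cdkn1a-/- samples but not of the WT samples, with 8.66, 9.01, 8.12 and 6.63 in Cdkn1a-/- samples against 7.31, 7.64 and 7.87 in WT samples, and its change of 0.50 became 0.99 without sample 4 (adjusted p = 0.626) and 0.63 without WT sample 3. There the first 3 Cdkn1a-/- samples lay above every WT sample.

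Ebf1 had levels of 9.66, 9.18, 10.42 and 8.54 in Cdkn1a-/- samples, against 9.79, 8.49 and 10.83 in WT samples. WT sample 2 and Cdkn1a-/- sample 4 were the low ones, and WT sample 3 was the highest. The change of -0.25 (SE 0.64, 95% interval -1.79 to 1.28, adjusted p = 0.902) became 0.31 without WT sample 3 and 0.05 without Cdkn1a-/- sample 4, and was -0.86 without WT sample 2, so its sign rested on single samples.

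B lineage markers varied over the same samples. Vpreb1, part of the surrogate light chain of pre-B cells, had levels of 11.18, 9.24, 10.99 and 7.10 in Cdkn1a-/- samples, against 12.21, 9.47 and 12.31 in WT samples. Its partner Igll1 had 9.46, 8.32, 9.38 and 4.05 in Cdkn1a-/- samples, against 10.85, 7.79 and 11.28 in WT samples. Both were lowest in Cdkn1a-/- sample 4, and among WT samples in WT sample 2, as were Rag1 and Ebf1 within their genotypes. Of the 9 listed B lineage markers, 8 were matched in the annotation and 5 reached the minimum in each genotype, with summed intensities of 2816 to 7558 in Cdkn1a-/- and 4111 to 12587 in WT samples, and Pax5 at 2.06 to 2.07 throughout. In the Crebbp and Ep300 experiments only Cd79b of these markers reached the minimum. The sort removed cells with B220, and the part of B lineage cells in these levels was not tested. In bulk samples fewer cells of a type and less RNA per cell cannot be told apart.

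**Figure D3:**
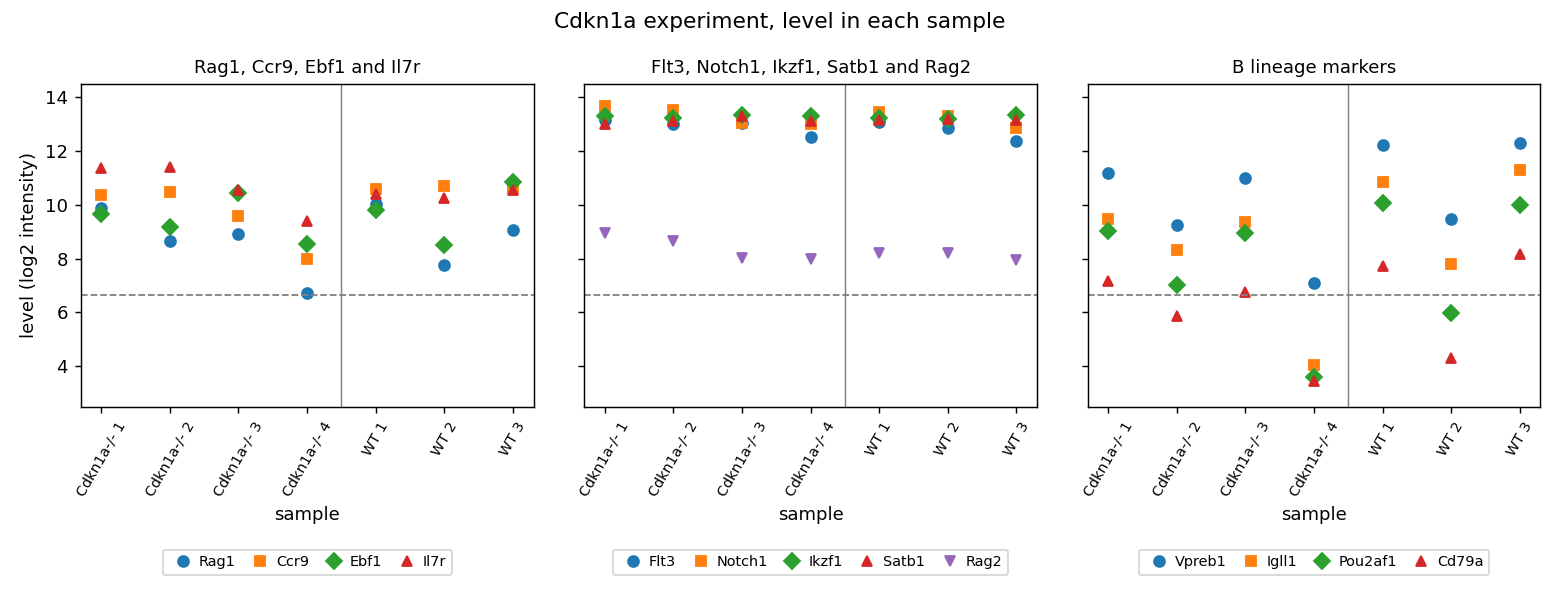
Levels (log2 intensity, y axis) in each Cdkn1a-/- and WT sample (x axis) of 4 variable genes of the group (left), 5 steadier ones (middle) and 4 B lineage markers (right), with the dashed line at the minimum of 6.64. Cdkn1a-/- sample 4 is lowest for Rag1, Ccr9 and Il7r and for all 4 B lineage markers, and WT sample 2 is the lowest WT sample for Rag1, Ebf1 and those markers.

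The remaining genes were steadier in the Cdkn1a experiment. Ikzf1 had levels of 13.22 to 13.32 in Cdkn1a-/- samples and 13.20 to 13.33 in WT samples, an SD within groups of 0.053, at the 3.22th percentile of all probe sets tested, and its change was 0.0226 (0.0598 without WT sample 3). Satb1 at 1416008_at had 12.98 to 13.30 in Cdkn1a-/- samples and 13.14 to 13.17 in WT samples, a change of -0.0233 (-0.0295 without WT sample 3). Flt3 had 13.14, 12.99, 13.05 and 12.52 in Cdkn1a-/- samples, against 13.07, 12.84 and 12.35 in WT samples. For Flt3 the lowest sample was WT sample 3, the one with red cell and hepatocyte RNA, and the change of 0.17 (95% interval -0.35 to 0.70) became -0.03 without it. Notch1 at 1418634_at had 13.68, 13.53, 13.02 and 13.001 in Cdkn1a-/- samples, against 13.44, 13.31 and 12.87 in WT samples, and its change of 0.10 became -0.07 without WT sample 3.

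Of the remaining tested probe sets, Notch1 at 1418633_at differed by -0.03 (95% interval -0.25 to 0.19), or -0.035 without WT sample 3, and Satb1 differed by -0.07 at 1416007_at, by -0.25 at 1436182_at and by 0.12 at 1439449_at, with all intervals crossing 0. Without WT sample 3 those of Satb1 were -0.27, -0.41 and -0.22 in the same order, so that the last turned sign. Cdkn1a-/- sample 4 was the lowest sample for 7 of the 16 tested probe sets, against 8.19% of all probe sets tested, and WT sample 3 for 5 of the 16, against 39.3% of all. Those 7 belong to Ccr9 (3), Il7r (2), Rag1 and Notch1.

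Genes that work with the members were read from 4 lists, with 59 of their 66 genes matched to a probe set in the annotation and the rest not analysed here. None was called in any of the 3 comparisons, with 6 receptor signalling partners, 11 transcription factor partners, 15 Notch pathway genes and 5 recombination and end joining genes tested in the Crebbp and Ep300 experiments and 9, 13, 18 and 9 in the Cdkn1a experiment. In the Crebbp experiment the median changes were 0.21, 0.04, 0.06 and 0.20 in that order, against 0.05 over all probe sets. In the Ep300 experiment they were -0.04, -0.02, -0.004 and -0.01, against -0.02. In the Cdkn1a experiment they were 0.04, 0.06, 0.04 and 0.05, against 0.05, and 0.03, -0.05, -0.05 and 0.002 without WT sample 3, against 0.02. At an unadjusted p under 0.05 with the fold the lists held Numb in the Crebbp experiment, none in the Ep300 experiment and Ccl25 in the Cdkn1a experiment.

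For each list the smallest p-values in Crebbp+/- belonged to genes with modest changes. Among receptor partners these were Cd27, a co-stimulatory receptor (0.25, adjusted p = 0.232), and Stat5b, which carries signals of the Il7 receptor (0.42, adjusted p = 0.237). Among factors they were Mef2c (0.28, adjusted p = 0.215) and Lmo2 (-0.26, adjusted p = 0.216). Among Notch pathway genes Mfng, a glycosyltransferase that modifies Notch receptors, differed by -0.42 (adjusted p = 0.147), and Numb, a Notch inhibitor, by 0.72 (adjusted p = 0.154), the only gene of the lists past the unadjusted p and the fold in this comparison, although all its levels there lay below the minimum (6.20 and 6.59 in Crebbp+/- samples, 5.47 and 5.89 in WT samples). Among end joining genes Xrcc5 (Ku80) differed by 0.26 (adjusted p = 0.322) and the kinase Atm by 0.23 (adjusted p = 0.424).

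In Ep300+/- cells the matching genes were Jak3 (-0.19) and Stat5a (0.20), the factors Spi1 (-0.23) and Ets1 (0.16), the gamma-secretase subunit Aph1a (0.42) and the ubiquitin ligase subunit Fbxw7 (-0.37), and Atm (0.41) and Hmgb2 (-0.16), each with an adjusted p of 1.00. In Cdkn1a-/- cells Ccl25, the ligand of Ccr9, had a level of 7.13 ± 0.39 (SD, n = 4), against 8.22 ± 0.36 (SD, n = 3) in WT cells. All 4 mutant samples lay below all 3 WT samples, as for 3.08% of all probe sets tested. The log2 change of Ccl25 was -1.10 (SE 0.26, adjusted p = 0.271), and it was -0.89 without WT sample 3 (adjusted p = 0.429). The Jak3 kinase of the Il7 receptor differed by 0.37 (adjusted p = 0.640).

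Among the Notch genes of the Cdkn1a experiment, the ligand Jag1 differed by 1.45 and the receptor Notch3 by 1.05 (adjusted p = 0.695 and 0.705), and both were lowest in WT sample 3 (5.72 and 6.14). Without that sample the changes were 0.60 and 0.48 (adjusted p = 0.527 and 1.00). The B cell factor Ikzf3 differed by -1.78 (adjusted p = 0.720) and was not tested without WT sample 3, as no other sample reached the minimum, while Spi1 differed by -0.17 (-0.11 without that sample). Lig4, the end joining ligase, differed by -0.28 and Xrcc5 by 0.31 (adjusted p = 0.720 each), which shrank to -0.09 and 0.08 without WT sample 3.

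In MEFs, where the same Crebbp mutation was set against WT littermate cells, only Ebf1 (4 of its 5 probe sets) and Notch1 (2 of 2) passed the minimum, so that 6 of the 27 probe sets were tested. None was called, as was 0% of the 15502 probe sets tested, with 1029 at an unadjusted p under 0.05. At an unadjusted p under 0.05 with the fold 3 of the 6 passed, all of Ebf1, against 0.961% of all, and the same 3 had every mutant sample below every WT sample, against 1.37%.

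Ebf1 at 1416301_a_at had levels of 8.15, 8.43, 8.03 and 8.36 in Crebbp+/- MEFs of litters 1 to 4, against 9.07, 8.78, 9.25 and 8.80 in WT MEFs. It was lower in 4 of 4 litters, with a log2 change of -0.73 (SE 0.16, 95% interval -1.14 to -0.32, adjusted p = 0.564). The others differed by -0.67 (1448293_at), -0.42 (1416302_at) and -0.67 (1439789_at), with adjusted p-values of 0.564, 0.703 and 0.478. In FL HSCs 1416301_a_at was higher in 2 of 2 Crebbp pairs, and the difference between the cell types, which were normalized apart, was not tested. Notch1 in MEFs differed by -0.11 at 1418634_at (95% interval -0.46 to 0.24).

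**Figure D4:**
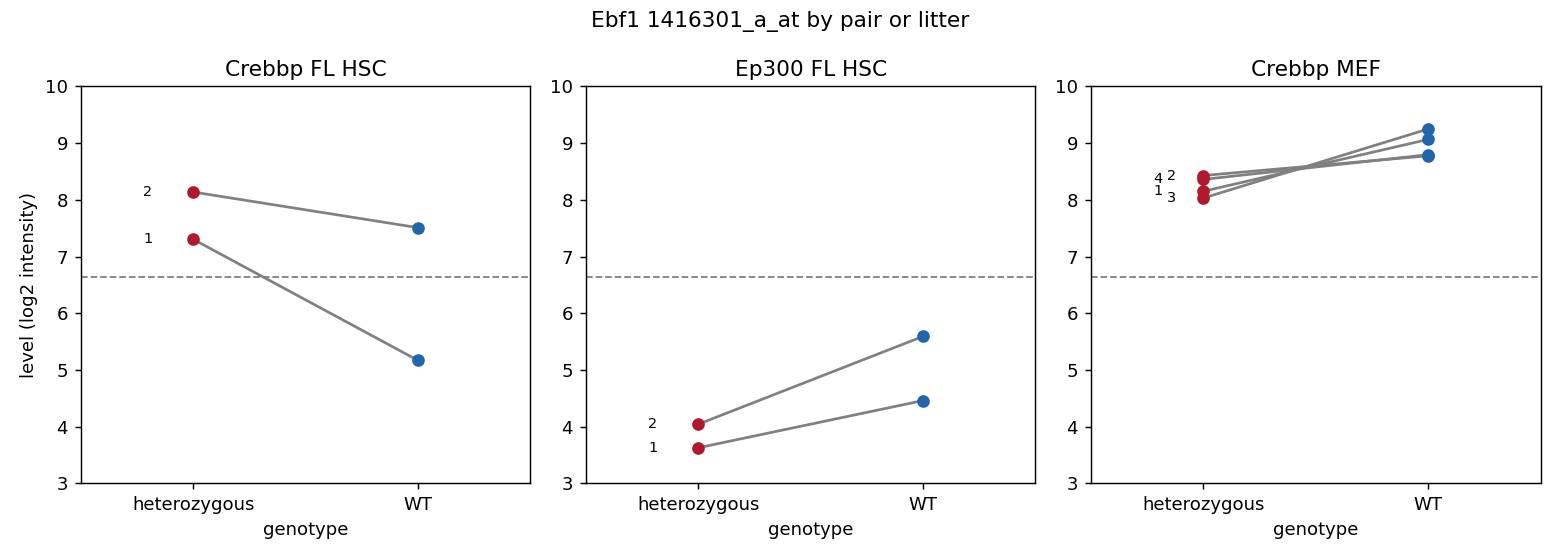
Level (log2 intensity, y axis) of Ebf1 at 1416301_a_at in heterozygous samples (red, left) and WT samples (blue, right), joined by pair or litter number, in Crebbp FL HSCs, Ep300 FL HSCs and Crebbp MEFs, with the dashed line at the minimum of 6.64. Heterozygous samples are higher in 2 of 2 Crebbp FL HSC pairs, lower in 2 of 2 Ep300 pairs (all below the minimum) and lower in 4 of 4 MEF litters.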

How the data were processed

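The authors made the log2 values with GCRMA (R package gcrma, its version not given in the sources used here), which corrects the background, normalizes and gives each probe set of an array 1 value, separately for the arrays of each experiment. The precision of differences between groups in these deposited log2 values is limited by how many samples there are. Probe sets were named through GEO's platform annotation. From them, technical replicates were averaged, 64 control probe sets of 45101 were left out, and probe sets with 1 sample at or above log2(100) were tested with limma 3.58.1 in R 4.3.3, with Benjamini-Hochberg adjustment over all probe sets tested. The 8 FL HSC samples of the Crebbp and Ep300 experiments shared 1 fit with a block for each of 4 pairs of equal sample number, the Cdkn1a samples were fitted unpaired, and MEFs, a comparison added after the data were seen, with litter as block. The deviations of same-numbered samples correlated at 0.70 in the Crebbp and 0.40 in the Ep300 experiment. Nothing states that a number marks a shared litter or day, and the methods' own test is paired. Embryos were pooled for FL HSC samples, so their p-values measure the spread between pools, and in the joint fit that of differences within pairs of pools. MEF samples came from single embryos, and their p-values measure the spread of differences within litters. The members and lists were chosen with earlier results of these data known. All member probe sets are named, and of the wider lists those called and the 2 with the smallest p in each comparison, a gene being read at its brightest probe set. Lists are given as counts and medians, with no list test. Fits were tested on simulated data. Promoter sequences came from RefSeq (GRCm38.p6), where all 10 genes matched.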

Additional observations from a re-analysis of the deposited data

Results flagged for a closer look

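At Ccr9 1427419_x_at, Cdkn1a-/- sample 4 had a level of 7.64, against 9.26 to 9.56 in the other Cdkn1a-/- samples, a gap of 0.842 of the range of the group. At Ebf1 1439789_at, the Crebbp+/- MEF sample of litter 4 had a level of 6.37, against 6.92 to 6.99 in the other Crebbp+/- MEF samples, a gap of 0.876 of the range. Both passed the 95% critical value of Dixon's test for 4 samples, which chance passes in about 5% of groups, and 28 groups of member values were examined. Ebf1 1416301_a_at was higher in 2 of 2 Crebbp+/- FL HSC pairs and lower in 4 of 4 Crebbp+/- MEF litters, so that its change in FL HSCs was 2.11 log2 units above that in MEFs, a difference that was not tested.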

How the results depend on the processing

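The number of probe sets called in the Crebbp comparison, 51, rested on the settings. It was 208 with arrays centred on their medians, 877 with eBayes fitted with a trend and robustly, 222 with the minimum applied to the mean, and 188 with quantile normalization run again. It was 0 with no filter, with only the 4 samples and the block, with technical replicate 1 or 2 alone, in the methods' paired t-test after adjustment (199 before it) and without pair 1 or 2 (0 to 0). Member probe sets called, 0, became 1, 2, 1 and 1 under the first 4 settings in that order, all of them of Ccr9. Without the replicate block the comparison called 0 (690 unadjusted). The Cdkn1a comparison, with 85 calls, had 38 with the minimum applied to the mean, 42 with no filter, 141 in an unpaired form of the methods' paired t-test and 38 to 87 with a sample left out (38 without Cdkn1a-/- sample 2 or 4, 43 without sample 1, 51 without sample 3 and 52 without WT sample 1), with no member called in any. With a replicate block on numbers 1 to 3 it called 6. Those numbers did not pair the samples (correlations of deviations 0.25, 0.29 and -0.04). The Ep300 comparison and the difference of effects stayed at 0 under every setting, and the MEF comparison, at 0, gave 2 without the replicate block and 0 to 2 with a litter left out. Signs also turned, in log2 differences (mutant minus WT) that no setting called. With technical replicate 1 alone they were -0.052 for Satb1 1416007_at in Crebbp+/- and -0.0555 for Ccr9 1427419_x_at in Ep300+/-. With technical replicate 2 alone they were -0.0445 for Satb1 1436182_at in Crebbp+/- and, in Ep300+/-, -0.0475 for Flt3, 0.169 for Il7r, -0.2575 for Notch1 1418634_at, 0.125 for Ikzf1 and 0.2025 for Satb1 1416008_at. Ikzf1 in Cdkn1a-/- was at -0.00775 with centring and -0.00277 with quantile normalization. The block on numbers 1 to 3, which leaves out Cdkn1a-/- sample 4, gave 0.18 for Rag1, 0.0243 for Notch1 1418633_at, 0.31 for Ccr9 1427419_x_at, 0.42 for 1421919_a_at and 0.0493 for Ebf1. With a pair left out, Flt3 in Crebbp+/- ranged from -0.43 to 0.20, Il7r in Ep300+/- from -0.83 to 0.29, Ccr9 1427419_x_at in Ep300+/- from -0.19 to 0.23, and the difference of effects from -0.47 to 0.16 for Flt3 and from -0.18 to 0.0243 for Notch1 1418633_at. With a Cdkn1a or WT sample left out, ranges that crossed 0 were -0.0278 to 0.33 for Flt3, -1.03 to 0.18 for Rag1, -0.0675 to 0.22 and -0.071 to 0.0243 for Notch1 (1418634_at and 1418633_at), -0.00475 to 0.0598 for Ikzf1, -0.33 to 0.31 and -0.24 to 0.42 for Ccr9 (1427419_x_at and 1421919_a_at), -0.86 to 0.31 for Ebf1, and -0.0807 to 0.026, -0.27 to 0.0723 and -0.22 to 0.44 for Satb1 (1416008_at, 1416007_at and 1439449_at). In MEFs with a litter left out, Notch1 ranged from -0.22 to 0.00367 (1418634_at) and from -0.10 to 0.11 (1418633_at). The causes were not tested. Signal limits Rag1 and Rag2, which lay near background in the Crebbp and Ep300 experiments, and Dntt, which did so in every FL HSC experiment.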
